A study of Mus musculus with 4 samples.

Results

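The genes described here are 4 tissue inhibitors of metalloproteases (Timp1, Timp2, Timp3 and Timp4) and 6 matrix metalloproteases (Mmp2, Mmp9, Mmp14, Mmp15, Mmp16 and Mmp17). They were chosen by symbol, make up 10 of the 22609 genes counted, and all 10 were tested. Their RNA was measured by sequencing of hippocampus from ovariectomized female mice, 24 h of reperfusion after 20 min in which both common carotid arteries were clipped. The 2 libraries labelled FLOX-control came from mice with the floxed aromatase gene, and the 2 labelled GFAP-ARO-KO from mice in which Cre driven by the GFAP promoter deletes Cyp19a1, the aromatase gene, in astrocytes. All mice had lost their ovaries 1 week before the surgery and all had undergone ischemia, so neither group had ovaries, and a sham group was not analysed here. The labels do not say whether a library is 1 animal or a pool, nor whether the libraries of a group are separate animals, so the p-values measure the spread between these libraries, which may be partly technical.

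Matrix metalloproteases are zinc enzymes that cut proteins of the extracellular matrix and of the cell surface. They are made as inactive precursors and are blocked by TIMPs, which bind the active site. Mmp2 and Mmp9 encode secreted gelatinases, known in the ischemic brain for the digestion of basement membrane around vessels. Mmp14, Mmp15 and Mmp16 encode membrane-type enzymes with a transmembrane anchor, and Mmp17 one that is held by a lipid anchor. Timp1 is a classical gene of reactive astrocytes after brain injury. RNA levels measure neither the amount of these proteins nor their activity.

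Reads assigned to genes numbered from 27930696 to 34878375 per library. Cyp19a1 had 3 and 2 reads in FLOX-control against 1 and 9 in the knockouts, too few to check the genotype labels. Hippocampal markers were present in every library, with summed levels of 451 to 523 CPM (read counts scaled to library size) over 5 genes. The second knockout library stood apart in markers of meninges and vessel walls, with values given beside the genes they moved with.

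Between the groups, Timp1, Mmp15 and Mmp17 were lower in GFAP-ARO-KO than in FLOX-control, and Timp4 and Mmp9 were higher (edgeR's quasi-likelihood test, Benjamini-Hochberg adjusted p under 0.05). Timp1 was 38.3-fold lower, whereas the other 4 changes lay between 1.33-fold and 1.99-fold. Timp2, Timp3, Mmp2, Mmp14 and Mmp16 did not pass. Thus 3 genes were called lower and 2 higher, of 15011 tested genes of which 20.4% were called, 11% lower and 9.39% higher. The 2 libraries of each group did not overlap for any of the 10 genes, which was so for 64.8% of all tested genes. The median log2 fold change of the 10 was 0.27, beside -0.000809 over all tested genes. With any 1 library left out, 0 of the 10 changed direction. With either control library left out, fewer of the 10 were called, and fewer genes were called among all tested genes as well. Calls lost or gained with a library left out are given with each gene.

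**Figure D1:**
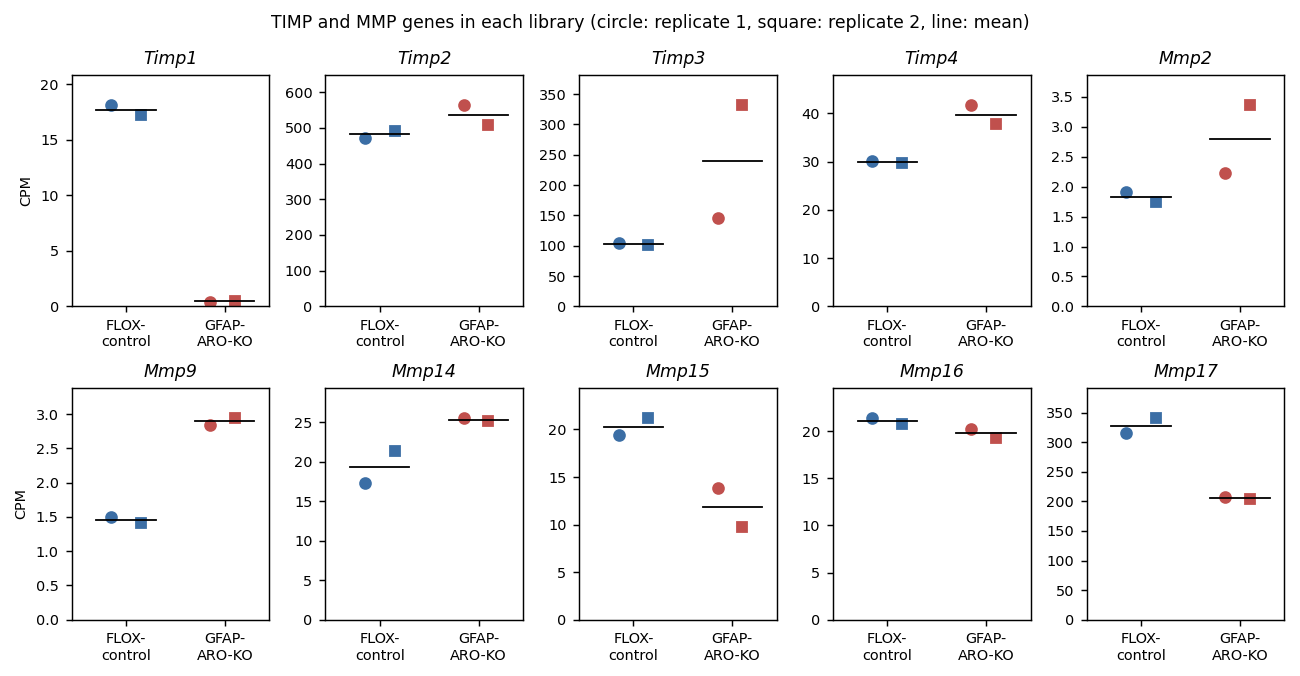
CPM of each of the 10 genes (vertical axes, each starting at 0) in the 2 FLOX-control libraries (blue) and the 2 GFAP-ARO-KO libraries (red), with the group mean as a line. Timp1 fell from 18.2 and 17.2 CPM to 0.427 and 0.496 CPM, and the knockout libraries were far apart for Timp3, at 146 and 333 CPM.

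Timp1 (chromosome X, 20447292 to 20451861, plus strand, mm9) had 608 and 563 reads in the controls, compared with 15 and 14 in the knockouts. This corresponded to 18.2 and 17.2 CPM against 0.427 and 0.496 CPM. Both knockout libraries were far below both controls, and the libraries within each group were close to each other. The log2 fold change was -5.26 ± 0.24 (SE, adjusted p = 0.000243), and it stayed between -5.35 and -5.14 with any 1 library left out. Summed levels of 6 astrocyte markers were 5254 and 5546 CPM in FLOX-control against 4156 and 4392 CPM in the knockouts. Of these 2, Gfap and Aqp4, were called lower. Gfap alone was at 1378 and 1435 CPM in the controls, compared with 761 and 709 CPM in the knockouts. The other 4, Slc1a2, Slc1a3, Aldh1l1 and Gja1, did not pass, with log2 fold changes of -0.16, -0.01, 0.20 and -0.14. In bulk tissue, fewer cells of a type and less RNA per cell cannot be told apart. Among the 8 microglia and macrophage markers, 7 were called lower, and their summed level was 329 and 366 CPM in the controls, compared with 176 and 162 CPM in the knockouts. The part of either marker list in the fall of Timp1 was not tested.

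The Timp1 gene lies inside 1 intron of Syn1, which encodes the synaptic vesicle protein synapsin I on the opposite strand, and the exons of both genes share 0 bases. Syn1 was at 672 and 721 CPM in FLOX-control against 576 and 515 CPM in the knockouts, 1.28-fold lower (log2 fold change -0.35 ± 0.10, adjusted p = 0.0416). That call was lost with either control left out (adjusted p = 0.133 and 0.240), without the second knockout (0.136) and with upper-quartile scaling (0.0508). Timp4 lies likewise in 1 intron of Syn2, and Timp3 within the span of Syn3. Syn2 was at 920 and 998 CPM in the controls, compared with 951 and 867 CPM in the knockouts, and did not pass (adjusted p = 0.594).

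The promoter of Timp1 is shown because this gene had the largest fall of the 10, and beside it those of Timp4, which rose, and Mmp15, which fell. RefSeq windows (GRCm38.p6, 250 bases before to 50 after the start) were at hand for 6 of the 10 genes, and for Mmp2, Mmp9, Mmp16 and Mmp17 there was no entry. Matches were searched on both strands. For AP-1, the site of Fos and Jun proteins, the motif was TGANTCA, and its variant known from Timp1, chosen for that reason, was TGAGTAA. STAT proteins were searched by TTCNNNGAA and ETS proteins by the motif AGGAAG. The promoter elements were the GC box, spelled GGGCGG, and the box named after its letters, TATAAA. The estrogen response element was spelled GGTCANNNTGACC. Each line gives the bases before the start, 5′ to 3′ on the gene's strand, with all matches in capitals (on the other strand AGGAAG reads as CTTCCT and GGGCGG as CCGCCC), and a further line a stretch of Timp1 from base 25 to base 48 after the start.
Timp1 (chrX:20869916-20870165, plus strand): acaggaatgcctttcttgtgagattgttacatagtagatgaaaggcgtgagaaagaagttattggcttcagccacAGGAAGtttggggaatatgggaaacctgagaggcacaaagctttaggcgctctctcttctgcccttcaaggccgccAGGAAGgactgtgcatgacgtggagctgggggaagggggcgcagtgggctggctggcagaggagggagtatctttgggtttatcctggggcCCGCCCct
Timp1 site (chrX:20870190-20870213, plus strand): gaTGAGTAAtgcgtccAGGAAGcc
Timp4 (chr6:115252206-115252455, minus strand): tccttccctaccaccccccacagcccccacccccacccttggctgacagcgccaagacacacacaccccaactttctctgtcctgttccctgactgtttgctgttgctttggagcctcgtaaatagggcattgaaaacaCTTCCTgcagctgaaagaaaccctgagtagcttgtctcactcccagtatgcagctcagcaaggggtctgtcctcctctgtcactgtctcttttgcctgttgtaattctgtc
Mmp15 (chr8:95352046-95352295, plus strand): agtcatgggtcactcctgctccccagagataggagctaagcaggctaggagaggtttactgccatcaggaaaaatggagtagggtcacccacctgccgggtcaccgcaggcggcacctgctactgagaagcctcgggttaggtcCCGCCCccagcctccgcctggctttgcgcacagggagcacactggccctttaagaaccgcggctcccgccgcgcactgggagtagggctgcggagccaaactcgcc

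The 300-base window of Timp1 held 1 match to TGAGTAA, 27 bases after the start, and 3 to AGGAAG, of which 1 stood in the same 24-base stretch. TGAGTAA was found in 2.68% of the 32851 windows in the table and AGGAAG in 35.4%. Because TGAGTAA was chosen as a variant known from Timp1, its match there tests nothing. Neither TGANTCA (7.81% of windows) nor TTCNNNGAA (8.3%) nor the estrogen response element (0.07%) matched in any of the 6 windows. Timp4 and Mmp15 had no match to TGAGTAA, Timp4 had 1 to AGGAAG, and Mmp15 had 1 to GGGCGG (35.7% of windows). No match overlapped another. These matches describe the letters in these windows and not the binding of any factor.

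Among 12668 other tested genes (mean log2 CPM at least 1), those with a profile over the 4 libraries most like that of Timp1 were AA465934, Ptx3, Lif, Cd44 and Gal. Likeness was the root mean square difference of log2 CPM after each gene was centred on its own mean, and it ran from 0.46 for AA465934 to 0.89 for Gal. Ptx3, a secreted pentraxin, was at 18.1 and 19.8 CPM in the controls, compared with 1.14 and 0.744 CPM in the knockouts. Cd44 encodes a receptor for hyaluronan at which some metalloproteases dock. It was at 46.8 and 35.6 CPM in FLOX-control against 2.62 and 3.65 CPM in the knockouts. Gal, which encodes the neuropeptide galanin, had 402 and 133 reads in the controls, and its call was lost without the first (adjusted p = 0.309) or the second (0.192) knockout library.

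Timp4 (chromosome 6, 115195634 to 115201867, minus strand, mm9), whose protein inhibits several metalloproteases and is abundant in brain and heart, was at 30.1 and 29.7 CPM in the controls. In the knockouts it was at 41.7 and 37.7 CPM, above both controls. The rise was 1.33-fold (log2 fold change 0.41 ± 0.11, adjusted p = 0.0420). The call was lost with the first (adjusted p = 0.203) or the second (0.240) control library left out, and likewise with the first knockout library left out (0.0595).

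Timp2 (chromosome 11, 118162383 to 118217054, minus strand, mm9) encodes an inhibitor that also takes part in the activation of pro-MMP2 by MMP14 on the cell surface. It was the most abundant of the 4 inhibitor genes per length. Its values were 471 and 492 CPM in the controls, compared with 565 and 507 CPM in the knockouts. Both knockouts were above both controls, but the second by less than the controls differed from each other. The log2 fold change of 0.15 ± 0.10 did not pass (adjusted p = 0.286).

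Timp3 (chromosome 10, 85763117 to 85812251, plus strand, mm9), whose protein stays bound to the matrix and inhibits ADAM and ADAMTS enzymes as well, was at 105 and 101 CPM in the controls. It was at 146 CPM in the first knockout library and at 333 CPM in the second. Both knockouts were above the controls, and they differed from each other by more than the first differed from the controls. The log2 fold change of 1.22 ± 0.42 did not pass over the 4 libraries (adjusted p = 0.125), nor without the first (0.529) or the second (0.547) control. It passed when only 1 knockout library was kept, at 1.69 for the second (adjusted p = 1.10e-06) and at 0.52 for the first (adjusted p = 0.0114), where a lone knockout library is assumed to vary like the controls. Without robust estimation of the dispersion it also passed (adjusted p = 0.0404). Timp3 shares 1733 exon bases, 21.3% of its exon length, with exons of Syn3 on the opposite strand. Syn3 was at 38.1 and 33.3 CPM in FLOX-control against 41.1 and 23.0 CPM in the knockouts (log2 fold change -0.15 ± 0.26, adjusted p = 0.720), and it passed only with the first knockout library left out (-0.63, adjusted p = 0.00547).

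The second knockout library, where Timp3 was highest, was also the highest in markers of vessel walls and meninges. The 6 mural markers, of smooth muscle and pericytes, summed to 65.6 and 72.9 CPM in the controls, compared with 84.3 and 232 CPM in the knockouts. Smooth muscle Acta2 and Myh11 were at 114 and 45.9 CPM in the second knockout, against 14.9 and 11.7 CPM in the first. Both knockouts were above the controls, where Acta2 was at 8.18 and 6.82 CPM and Myh11 at 4.87 and 4.74 CPM. In the second knockout, pericyte genes Rgs5, Kcnj8 and Abcc9 were not above both controls, with 20.5 CPM of Rgs5 against 17.3 and 23.6 CPM. The remaining mural marker, Pdgfrb, was at 23.0 and 26.3 CPM in the controls, compared with 31.1 and 40.7 CPM in the knockouts. The 8 meningeal and fibroblast markers summed to 103 and 149 CPM in FLOX-control against 113 and 445 CPM in the knockouts. Each of the 8 was highest in the second knockout, by unlike amounts. Igf2 was at 25.8 and 37.0 CPM in the controls, compared with 27.7 and 225 CPM in the knockouts. Dcn, most of the control sum, was at 56.0 and 84.7 CPM, compared with 66.6 and 103 CPM. None of the markers of these lists was at 0 in all libraries. Pdgfrb was the 1 mural marker called higher, and the 8 meningeal markers did not pass. Choroid plexus markers summed to 34.2 and 36.7 CPM in the controls, compared with 49.5 and 67.1 CPM in the knockouts. Of 5 tested, 2 were called higher (Ttr and Clic6) and 3 did not pass. Most of the control sum was Kl, at 26.0 and 30.3 CPM, compared with 32.9 and 31.2 CPM in the knockouts. Ttr was at 6.84 and 4.47 CPM in the controls, compared with 13.2 and 30.4 CPM in the knockouts. The part of these cells in the level of Timp3 was not tested. In the first knockout library Timp3 was 1.42 times the control mean, choroid plexus markers 1.40 times, mural markers 1.22 times and meningeal markers 0.901 times.

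**Figure D2:**
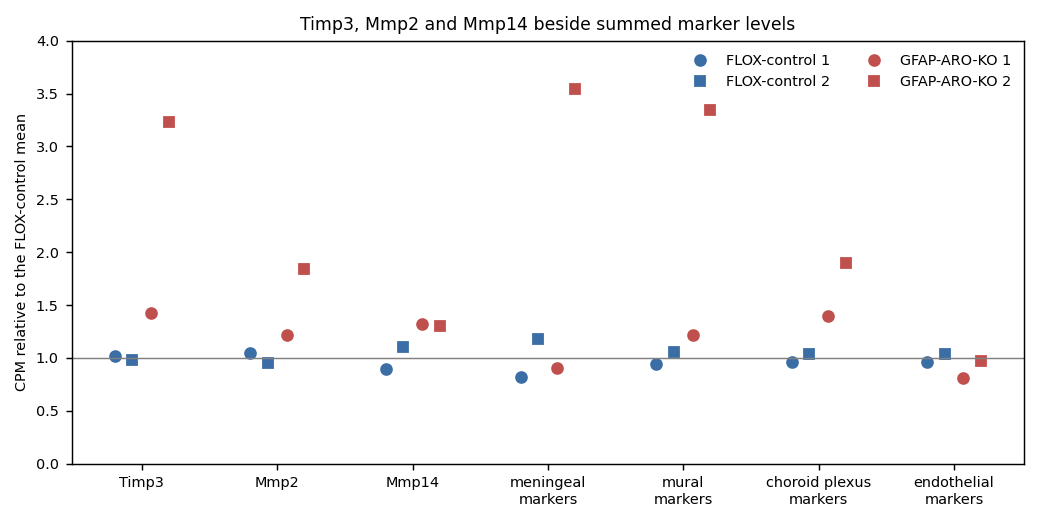
CPM of Timp3, Mmp2 and Mmp14 and summed CPM of 4 marker lists, each divided by its FLOX-control mean (vertical axis, 1 at the grey line), for the 4 libraries. The second GFAP-ARO-KO library stands at 3.23 for Timp3, 3.54 for meningeal and 3.34 for mural markers, while both knockout libraries are close together for Mmp14.

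Among the gelatinases, Mmp9 (chromosome 2, 164766280 to 164781350, plus strand, mm9) was higher in the knockout. It had 50 and 46 reads in FLOX-control against 100 and 83 in the knockouts, or 1.49 and 1.41 CPM against 2.85 and 2.94 CPM. The groups were well apart, at a low level in all 4 libraries. The rise was 1.99-fold (log2 fold change 0.99 ± 0.26, adjusted p = 0.0333). It did not pass with DESeq2 (adjusted p = 0.0970) or without the first (0.168) or the second (0.204) control library. Neutrophils carry much Mmp9 in their granules. Of 8 neutrophil and monocyte markers Elane and Camp had 0 reads in all libraries. The summed level was 6.96 and 8.50 CPM in the controls, compared with 4.98 and 7.59 CPM in the knockouts, and most of it was Lyz2, which macrophages also express (6.45 and 7.65 CPM, compared with 4.21 and 6.70 CPM). Mpo, at 4 and 2 reads against 8 and 5, and S100a8, at 4 and 8 against 10 and 9, were higher in both knockouts. Ccr2 went the other way, at 6 and 9 reads against 1 and 2. For S100a9, at 3 and 8 reads against 8 and 9, the groups overlapped in CPM. All of these had too few reads to be tested. The part of these cells in the level of Mmp9 was not tested.

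Mmp2 (chromosome 8, 95351227 to 95377316, plus strand, mm9) had 64 and 57 reads in FLOX-control against 78 and 95 in the knockouts. At 1.91 and 1.74 CPM against 2.22 and 3.37 CPM, the second knockout library was the highest, as it was for Timp3 and the meningeal markers, whose part in the level of Mmp2 was not tested. Its log2 fold change of 0.59 ± 0.30 did not pass (adjusted p = 0.196), was 0.29 without the second knockout library, and passed without the first at 0.88 (adjusted p = 0.0399).

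Of the transmembrane enzymes, Mmp15 (chromosome 8, 97876168 to 97898193, plus strand, mm9) was lower in the knockout. It was at 19.4 and 21.2 CPM in the controls, compared with 13.9 and 9.75 CPM in the knockouts, with the second knockout the lowest. The fall was 1.71-fold (log2 fold change -0.77 ± 0.19, adjusted p = 0.0272), and it did not pass without the first (adjusted p = 0.0991) or the second (0.153) control library. Its size was -1.06 without the first knockout library and -0.54 without the second, and both passed.

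Mmp14 (chromosome 14, 55050441 to 55060095, plus strand, mm9) encodes the main cell surface activator of pro-MMP2. It was at 17.4 and 21.3 CPM in FLOX-control against 25.5 and 25.1 CPM in the knockouts, close together and above both controls. The log2 fold change of 0.39 ± 0.14 did not pass (adjusted p = 0.0919), nor did it under any of 13 alternatives (adjusted p from 0.0781 to 0.474). Mmp16 (chromosome 4, 17780040 to 18046292, plus strand, mm9) was at 21.4 and 20.8 CPM in the controls, compared with 20.2 and 19.3 CPM in the knockouts. Its log2 fold change of -0.09 ± 0.12 was the smallest of the 10 genes in size (adjusted p = 0.629).

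Mmp17 (chromosome 5, 130090089 to 130114086, plus strand, mm9) had the most reads of the 6 metalloprotease genes. It had 10550 and 11142 reads in FLOX-control against 7296 and 5751 in the knockouts, or 315 and 341 CPM against 208 and 204 CPM. The knockout libraries were nearly equal and both were below both controls. The fall was 1.59-fold (log2 fold change -0.67 ± 0.09, adjusted p = 0.00463) and passed under each of 13 alternatives, at log2 fold changes from -0.72 to -0.62. Summed levels of 5 excitatory neuron markers were 7473 and 8206 CPM in the controls, compared with 6774 and 6582 CPM in the knockouts, with 2 called lower. The 5 inhibitory neuron markers summed to 931 and 900 CPM and to 875 and 823 CPM, with 1 called lower. The part of these cells in the fall of Mmp17 was not tested. Among the profiles most like that of Mmp17 were those of Thrb (a thyroid hormone receptor), Arap1 and Ipo7 (a nuclear import receptor), with root mean square differences of 0.012 to 0.023. Thrb was at 68.2 and 73.9 CPM in FLOX-control against 44.1 and 43.8 CPM in the knockouts.

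**Figure D3:**
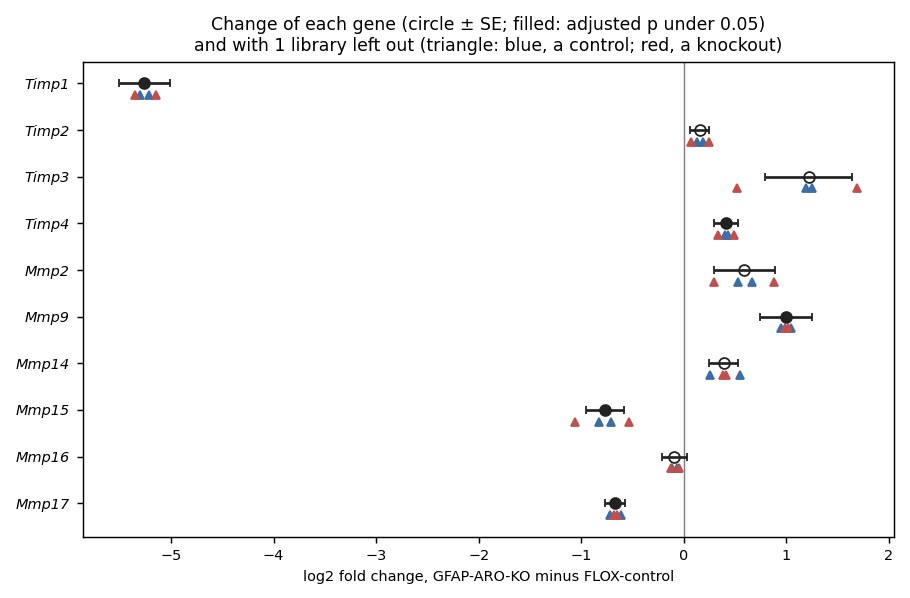
Log2 fold change of GFAP-ARO-KO against FLOX-control (horizontal axis) for each of the 10 genes, as circles with their SE (filled where the adjusted p was under 0.05), and as triangles with 1 library left out (blue for a control, red for a knockout). Timp1 stands alone near -5.26, and the triangles spread most for Timp3, from 0.52 to 1.69.

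Levels of different genes were compared as RPKM, which here is the CPM divided by the summed exon length in kilobases. In the controls, Timp2 was the highest at 124 ± 3.80 RPKM (SD, n = 2), followed by Mmp17 at 94.0 ± 5.21, Timp4 at 21.1 ± 0.20 and Timp1 at 19.9 ± 0.75. Below them came Timp3 (12.6 ± 0.33), Mmp14 (7.45 ± 1.09), Mmp15 (4.67 ± 0.29), Mmp16 (2.43 ± 0.05), Mmp2 (0.602 ± 0.04) and Mmp9 (0.410 ± 0.02). Neighbours in this order did not overlap in the controls. In the knockouts Timp1 was the lowest of the 10, at 0.520 ± 0.06 RPKM (SD, n = 2). Overlapping neighbours there were Timp3 with Timp4, Mmp15 with Mmp16 and Mmp2 with Mmp9. The lengths come from an annotation that may differ from the one used for counting.

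**Figure D4:**
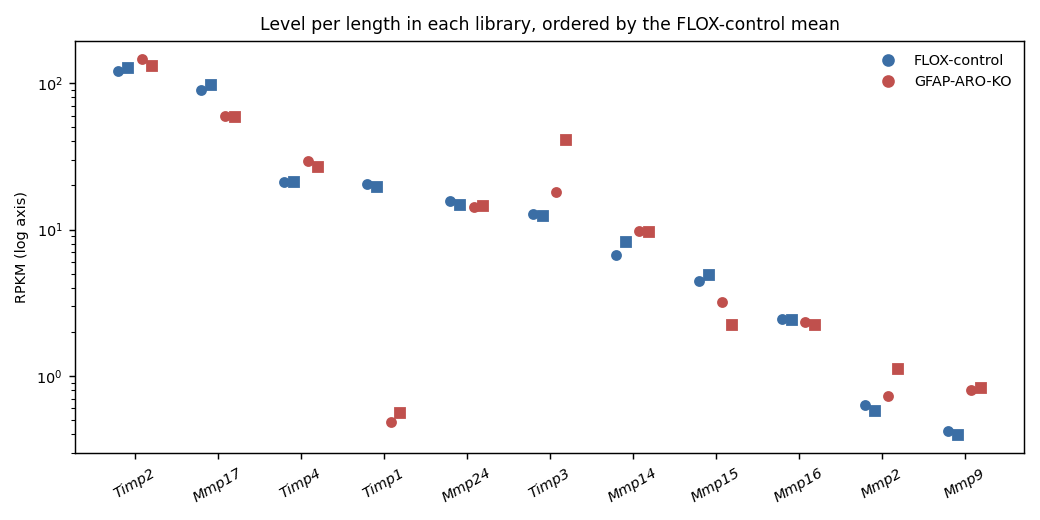
RPKM (vertical log axis) of the 10 genes and of Mmp24 in each library, ordered by the FLOX-control mean (blue for FLOX-control, red for GFAP-ARO-KO, circles and squares for replicates 1 and 2). Timp1 lies above Timp3 and all 6 metalloprotease genes but Mmp17 in the controls and is the lowest of the 10 genes in the knockouts, and Timp2 and Mmp17 stay at the top.

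Timp1 made up 11.6% and 10.8% of the summed RPKM of the 4 inhibitor genes in the controls, compared with 0.249% and 0.282% in the knockouts. Timp2 held 68.9% and 70.5% in FLOX-control against 75.2% and 65.7% in the knockouts. The share of Timp3 was 7.33% and 6.92% in the controls, compared with 9.31% and 20.6% in the knockouts. The summed level of the inhibitors was 176 and 179 RPKM in FLOX-control against 193 and 198 RPKM in the knockouts, so it was not lower where Timp1 was low. In the second knockout library, which was high in meningeal and mural markers, 40.8 RPKM of that sum was Timp3. In the controls Timp3 was at 12.9 and 12.4 RPKM. Mmp17 held 86.0% and 85.6% of the summed RPKM of the 6 metalloprotease genes in the controls, compared with 77.9% and 78.4% in the knockouts. Their sum was 105 and 114 RPKM in FLOX-control against 76.4 and 74.5 RPKM in the knockouts. The ratio of inhibitor to metalloprotease RNA was 1.67 and 1.57 in the controls, compared with 2.52 and 2.66 in the knockouts. Over all metalloprotease genes counted it was 1.43 and 1.37 against 2.09 and 2.17. These sums were chosen after the single values were seen and were not tested.

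Of 17 other metalloprotease genes, 5 had enough reads to be tested, and 0 passed by edgeR, limma-voom or DESeq2, with 0 at an unadjusted p under 0.05 by edgeR. Mmp24, a membrane-type enzyme of neurons, had the highest level of these. It was at 73.3 and 68.4 CPM in FLOX-control against 66.4 and 67.4 CPM in the knockouts (log2 fold change -0.08 ± 0.10, adjusted p = 0.578). Mmp11 (log2 fold change -0.01 ± 0.32), Mmp19 (0.02 ± 0.29), Mmp23 (0.16 ± 0.50) and Mmp28 (0.16 ± 0.45) had between 12 and 79 reads in each library, and their signs changed with a library left out. Exons of Mmp19, Mmp24 and Mmp28 overlap genes on the opposite strand. Mmp1a, Mmp1b, Mmp7, Mmp10, Mmp20 and Mmp27 had 0 reads in all libraries, and a count of 0 allows at most 0.106 CPM. The stromelysin Mmp3, the neutrophil collagenase Mmp8, the macrophage elastase Mmp12 and the collagenase Mmp13, all known from injured tissue, had at most 3 reads in any library.

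Related proteases changed in both directions. Of 11 tested ADAM genes, 2 were lower and 9 did not pass, and of 16 tested ADAMTS genes, which include the enzymes that cut aggrecan-type proteoglycans, 2 were lower and 5 higher, beside 11% lower and 9.39% higher over all tested genes. The shares called lower were thus not far from that over all genes. For ADAMTS genes called higher, 5 of 16 was above the 9.39% over all genes. The median log2 fold change was -0.19 for the ADAM genes and 0.44 for the ADAMTS genes. Adamts4 and Adamts1, both targets that TIMP3 is known to inhibit, were 2.88-fold lower (log2 fold change -1.53 ± 0.15, adjusted p = 0.00155) and 2.24-fold lower (-1.16 ± 0.13, adjusted p = 0.00236). Adamts4 was at 22.4 and 22.2 CPM in the controls, compared with 7.29 and 8.22 CPM in the knockouts. Adamts14, a procollagen processing enzyme, rose from 2.30 and 2.42 CPM to 8.97 and 7.13 CPM (log2 fold change 1.78 ± 0.22, adjusted p = 0.00372). The other 4 that rose, named after their values were seen, were Adamts3, Adamts7, Adamts17 and Adamts20. With any 1 library left out, the log2 fold change of Adamts14 stayed between 1.59 and 1.94. The number of ADAMTS genes called higher moved with the library left out, as did the number among all tested genes. Adam19 was 2.91-fold lower (log2 fold change -1.54 ± 0.14, adjusted p = 0.00132). Adam17, the TNF-converting enzyme that TIMP3 blocks, was 1.70-fold lower (-0.76 ± 0.14, adjusted p = 0.0127), but not without the first (0.0711) or the second (0.106) control. The log2 fold change of Adam33, 1.52 ± 0.53, missed the threshold (adjusted p = 0.0838). It ran from 0.92 to 2.58 with a library left out, and passed without the second knockout library.

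Of 17 tested genes for activators, docking proteins and other inhibitors of metalloproteases, 5 were lower and 1 higher, beside 11% and 9.39% over all tested genes, with a median log2 fold change of -0.15. Those that fell included Cd44 and Cd63, a tetraspanin that binds TIMP1 at the cell surface (2.20-fold lower, log2 fold change -1.14 ± 0.12, adjusted p = 0.00201). Cd63 was at 38.1 and 36.8 CPM in FLOX-control against 16.5 and 17.5 CPM in the knockouts. Named after their values were seen, Bsg and Cav1 fell as well, and Lcn2, whose protein binds MMP9, was the one that rose, at 3.46 and 2.08 CPM in the controls, compared with 9.57 and 25.5 CPM in the knockouts. With limma-voom, 0 of these genes were called higher. With either control left out fewer of these genes were called, as was so among all tested genes. Without the first knockout library more were called higher, again as among all tested genes. Furin, which activates membrane-type metalloproteases, differed by a log2 value of -0.07 ± 0.11 (adjusted p = 0.678), and Reck, which encodes a membrane-bound inhibitor, by 0.69 ± 0.27 (adjusted p = 0.114); both were named after their values were seen.

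Among the substrates, 3 of 16 genes of basement membrane and vessel barrier rose and 13 did not pass, beside 9.39% higher over all tested genes, with a median log2 fold change of 0.24. Lamc1 and Lama5, which encode laminin chains, and Ocln, which encodes occludin, were 1.36-fold, 1.54-fold and 1.67-fold higher (adjusted p = 0.0302, 0.0308 and 0.0390). With any 1 library left out, their log2 fold changes ran from 0.36 to 0.53, from 0.50 to 0.76 and from 0.48 to 0.99. None of these calls held with either control left out. The number of the list that rose moved with the library left out, as did the number among all tested genes. Endothelial markers summed to 183 and 197 CPM in the controls, compared with 153 and 185 CPM in the knockouts, with 2 called higher and 2 lower. Of 12 proteoglycan and matrix genes, 2 fell and 1 rose, near the 20.4% called over all tested genes, with a median log2 fold change of 0.02. Tnc, the matrix glycoprotein tenascin C, was 3.87-fold lower (log2 fold change -1.95 ± 0.20, adjusted p = 0.00192). Ncan (neurocan) was 1.45-fold lower (log2 fold change -0.54 ± 0.09, adjusted p = 0.00945), a call lost without the first control (0.0742). Bcan (brevican) was 1.26-fold higher (adjusted p = 0.0489), a call lost with either control left out (0.196 and 0.246), without the second knockout library (0.108) and with no filter on low counts (0.0535). In this list more genes rose without the first knockout library, as was so among all tested genes. More fell without the second, where fewer fell among all tested genes.

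Cytokines, STAT3 and AP-1 factors include the textbook inducers of Timp1, and of 20 tested genes of this list 10 were lower and 10 did not pass, beside 11% lower over all tested genes. The median log2 fold change of the list was -0.69. Lif, a cytokine that signals through STAT3, was at 40.8 and 24.8 CPM in FLOX-control against 2.22 and 1.63 CPM in the knockouts (16.8-fold lower, log2 fold change -4.07 ± 0.32, adjusted p = 0.00123). Fosl1, an AP-1 subunit, was at 3.85 and 2.69 CPM in the controls, compared with 0.199 and 0.248 CPM in the knockouts (14.6-fold lower, log2 fold change -3.87 ± 0.44, adjusted p = 0.00278). Its relative Fosl2 was 2.22-fold lower (log2 fold change -1.15 ± 0.18, adjusted p = 0.00745). The other 7 that fell, named after their values were seen, were the cytokines Il11, Clcf1 and Il1b, the receptor gene Osmr, and the AP-1 genes Fos, Jun and Junb. Stat3 (log2 fold change -0.35 ± 0.13, adjusted p = 0.0882) and Il6st (-0.10 ± 0.10, adjusted p = 0.503), the shared receptor subunit of this cytokine family, did not pass and were likewise named afterwards. With any 1 library left out, fewer of this list were called lower. Among all tested genes fewer were called lower as well, except without the first knockout library, where more were. The list was drawn up with earlier results of these libraries known.

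**Figure D5:**
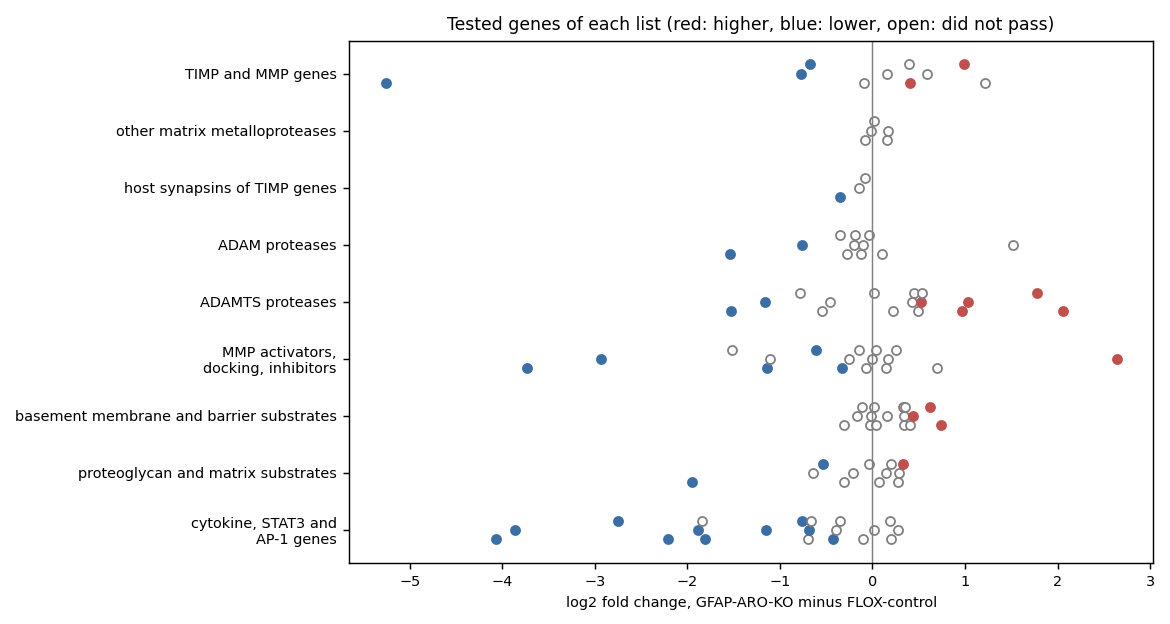
Log2 fold change of GFAP-ARO-KO against FLOX-control (horizontal axis) for the tested genes of 9 lists, red where higher, blue where lower and open where the adjusted p was 0.05 or more; vertical offsets within a list only separate points. Most genes of the cytokine, STAT3 and AP-1 list lie left of 0, with Lif at -4.07, while the 5 other metalloprotease genes lie near 0.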

How the data were processed

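Raw counts of reads per gene symbol were deposited, which the authors made from 50 bp single-end reads of total RNA libraries with bcl2fastq, TopHat2 2.0.8b, HTSeq and mm9, per the submitters' processing notes and the labels' protocols. Duplicate runs were combined before alignment, per the series' design text. The counting annotation and strand setting were not given in the sources used here. Rows that name no gene (5 tallies, 45.2% to 47.3% of entries) stayed out of all steps.

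Groups came from the titles. Genes were kept by filterByExpr (minimum count 10, minimum total 15), scaled by TMM and tested with edgeR 4.0.16 in R 4.3.3 (glmQLFit, robust, legacy=FALSE) with Benjamini-Hochberg adjustment over 15011 genes. CPM used TMM-scaled gene totals. A standard error is the log2 fold change divided by the root of F. A floor of 3 counts gives the level a count of 0 allows; such floors cover counting error only. Coordinates and exon lengths come from GENCODE vM1 on NCBIM37, the assembly of mm9, and promoters from RefSeq (GRCm38.p6). The steps were tested on simulated counts, drawn with the same dispersion trend in both groups. A library that stands apart, as the second knockout did, was not simulated.

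Named are the 10 genes, all tested genes of the other metalloprotease and synapsin lists, the 3 genes with the smallest p of each other list, and the 5 likest profiles of the 2 genes with the smallest p; exceptions are marked, and some genes the rule names are not reported here. The genes and lists were chosen with earlier results of these data known. Alternatives were other scaling, filters and dispersion settings, limma-voom (limma 3.58.1), DESeq2 1.42.0, a replicate block, and each library left out.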

Additional observations from a re-analysis of the deposited data

How the results depend on the processing

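Over 13 alternatives the 10 genes gave 130 values, of which 117 kept direction and side of the threshold, 9 lost the call, 4 gained it and 0 changed direction. The 4 gains were 3 for Timp3 and 1 for Mmp2. Of the 10 genes, those called higher numbered 1 with DESeq2 (without Mmp9), and between 0 and 3 with a library left out; those called lower numbered 2 or 3. With a library left out, the genes called higher ranged from 296 to 2388, beside 1409 with all 4 libraries, and those called lower from 517 to 2433, beside 1652. Both minima came without the second control and both maxima without the first knockout library. Fewer libraries also leave 1 residual degree of freedom, with the lone library of a group assumed to vary like the other group.

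The labels do not say whether libraries with the same replicate number share anything else. The deviations of same-numbered libraries from their group means correlated at -0.00540 over genes. A correlation over all genes does not test for a batch that touches only some of them. With the replicate block, 1449 genes were higher and 1745 lower, and among the 10 genes 1 was higher and 3 lower, since Timp4 did not pass (adjusted p = 0.0546). No call changed among the other 9 genes. Outside the 10 genes, the block also ended the call of Bcan (adjusted p = 0.0619), left 0 genes called higher in the list of activators, docking proteins and inhibitors, so that Lcn2 did not pass, and brought Adam33 past the threshold (adjusted p = 0.0305).

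The direction reversed only for genes that did not pass. The log2 fold change of Mmp11 was 0.0127 with upper-quartile scaling, 0.00501 with the stricter filter, 0.00906 with legacy estimation and 0.0168 with DESeq2. With a library left out it ran from -0.34 to 0.31 for Mmp11, from -0.24 to 0.29 for Mmp19, from -0.22 to 0.54 for Mmp23, from -0.48 to 0.69 for Mmp28 and from -0.63 to 0.21 for Syn3. The cause was not tested. Low counts limit Mmp2, Mmp9 and the lesser metalloproteases.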
